A study of Mus musculus with 6 samples.

Results

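The Cyp3a subfamily of cytochrome P450 genes was examined in mouse liver. Its members were the rows of the deposited gene count table for Cyp3a11, Cyp3a13, Cyp3a16, Cyp3a25, Cyp3a41a, Cyp3a44 and Cyp3a59, which are 7 of the 56674 rows of that table. All 7 were found and all 7 passed the filter on low counts, which left 18043 genes for testing. The table has 4 more Cyp3a rows, for Cyp3a41b, Cyp3a57, Cyp3a61-ps1 and Cyp3a63-ps, which are described where they bear on the members.

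Poly(A)-selected liver RNA was sequenced from male C57BL/6 mice reared for 71 weeks. One group had chow containing polyethylene microplastic (PE-MP) and the other had normal chow, with 3 libraries per chow, and both shared strain, sex and time. The labels give neither the dose and size of the plastic nor whether each library came from 1 animal. The question was whether long intake of the plastic alters hepatic gene expression.

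Cyp3a enzymes sit in the membrane of the endoplasmic reticulum and hydroxylate steroids, bile acids and a wide range of drugs and other foreign compounds. They draw electrons from the NADPH reductase Por, in part with cytochrome b5, and need haem as a cofactor. In liver, Cyp3a11 is a classical target of the xenobiotic receptors PXR (Nr1i2) and CAR (Nr1i3), which bind DNA together with RXR, and its basal transcription depends on HNF4A. Background knowledge also divides the members by age and sex. Cyp3a11, Cyp3a13 and Cyp3a25 are forms of the adult liver, Cyp3a16 is known as a fetal and neonatal form, and Cyp3a41a and Cyp3a44 are known as forms of the adult female liver. All libraries here were male, so no sex difference was measured.

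How alike the members are decides how well their counts can be told apart, so their sequences come first. The stretches below run 5′ to 3′ on the gene's own strand from -185 to -86, where 0 is the first transcribed base, and are RefSeq sequence of build GRCm38.p6. Capitals mark every AGGTCA and AGTTCA, the half-sites that PXR, CAR and RXR are known to bind as pairs, on either strand, and CAAAGTCCA, a motif of HNF4A. They are shown because all matches of these motifs in the members' promoter windows lie in this stretch.
Cyp3a11: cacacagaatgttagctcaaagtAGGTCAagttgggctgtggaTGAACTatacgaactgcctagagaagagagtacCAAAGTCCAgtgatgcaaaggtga
Cyp3a16: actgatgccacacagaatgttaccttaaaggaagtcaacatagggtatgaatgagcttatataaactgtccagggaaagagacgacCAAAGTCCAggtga
Cyp3a41a: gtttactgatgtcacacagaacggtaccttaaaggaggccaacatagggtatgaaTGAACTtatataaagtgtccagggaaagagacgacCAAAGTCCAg
Cyp3a44: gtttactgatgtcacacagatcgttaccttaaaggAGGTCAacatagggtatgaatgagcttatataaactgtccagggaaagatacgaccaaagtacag
Cyp3a25: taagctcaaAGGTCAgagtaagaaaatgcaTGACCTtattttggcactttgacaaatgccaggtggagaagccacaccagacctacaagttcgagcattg
Cyp3a59: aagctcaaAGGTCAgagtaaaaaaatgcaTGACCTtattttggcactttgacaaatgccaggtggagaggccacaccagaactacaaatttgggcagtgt
Cyp3a13: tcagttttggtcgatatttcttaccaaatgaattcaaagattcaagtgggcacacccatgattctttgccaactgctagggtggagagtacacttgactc

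These stretches lie on chromosome 5, for Cyp3a11 at chr5:145879940-145880039 on the minus strand, for Cyp3a16 at chr5:145469809-145469908 on the minus strand, for Cyp3a41a at chr5:145720222-145720321 on the minus strand, for Cyp3a44 at chr5:145805960-145806059 on the minus strand, for Cyp3a25 at chr5:146009704-146009803 on the minus strand, for Cyp3a59 at chr5:146079073-146079172 on the plus strand and for Cyp3a13 at chr5:137921705-137921804 on the minus strand. Cyp3a13 thus stands apart from the cluster of the other 6. Motifs were searched on both strands in windows of 250 bases before to 50 after the start, for 32817 promoters of the RefSeq table, and were picked with the members' sequences in view. AGGTCA occurred in 4 members (Cyp3a11, Cyp3a25, Cyp3a44 and Cyp3a59) and in 16.3% of all promoters. AGTTCA occurred in Cyp3a11 and Cyp3a41a and in 14% of all promoters. CAAAGTCCA occurred in Cyp3a11, Cyp3a16 and Cyp3a41a and in 0.475% of all promoters. CAAAGGTCA, which overlaps AGGTCA, occurred in Cyp3a25 and Cyp3a59 and in 0.478% of all promoters. No exact DR3 or DR4 (a direct repeat of 1 of these half-sites with 3 or 4 bases between) and no exact ER6 (an everted repeat of either with 6 bases between) was found in a member's window, and Cyp3a13 had no match of any motif. A match is a run of letters, not a measured binding site.

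The promoter windows fall into 3 kinds by identity. Those of Cyp3a25 and Cyp3a59 were 96.3% identical over 299 aligned bases. Those of Cyp3a16, Cyp3a41a and Cyp3a44 were 94.3% to 95.9% identical to one another, and Cyp3a11 was 79.2% to 82.2% identical to these 3. Cyp3a13 was 64.5% to 67.3% identical to the other members.

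The transcripts fall into the same kinds. Over GENCODE M21 transcripts (build GRCm38), Cyp3a25 and Cyp3a59 were 97% identical over 1990 aligned bases, and Cyp3a11, Cyp3a16, Cyp3a41a and Cyp3a44 were 91.6% to 95% identical to one another. Cyp3a13 was 72.1% to 74.5% identical to the other members. The closest pair was Cyp3a41a and its copy Cyp3a41b, which differed at 2 of 2060 aligned bases, G207A and G423T, both in the coding part. Positions count from 1 at the 5′ end of the Cyp3a41a transcript, with the Cyp3a41a base first. The 29 bases around each are shown with that base in capitals, because among the aligned bases only these 2 differ. The alignment falls in 2 blocks, over transcripts of 2060 bases for Cyp3a41a and 2064 for Cyp3a41b. Reads over the gap between the blocks can therefore differ as well.
Cyp3a41a at 207: caggggattcctggGcccaaacctctgcc
Cyp3a41b at 207: caggggattcctggAcccaaacctctgcc
Cyp3a41a at 423: tttggcccagtgggGataatgagtaaagc
Cyp3a41b at 423: tttggcccagtgggTataatgagtaaagc

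The sources used here do not give the read length, so the share of each transcript that cannot be assigned was measured with windows of 50, 100 and 150 bases. At 50 bases, 98.6% of the windows of Cyp3a41a occurred in another Cyp3a transcript, and at 150 bases 82.9% still did. Cyp3a25 shared 26.8% of its windows of 50 bases, and 25% of all its windows occurred in Cyp3a59. Cyp3a59 shared 28%, and 24.7% of all its windows occurred in Cyp3a25. At 150 bases the shares were 0.702% for Cyp3a25 and 0.706% for Cyp3a59. Cyp3a11 shared 14.8% of its windows at 50 bases, 0.312% at 100 and 0% at 150. Cyp3a44 shared 26.5% at 50 bases and Cyp3a16 10.7%, and both shared 0% at 150. Cyp3a13 shared 0% at every size. Counts of Cyp3a41a and Cyp3a41b are therefore uncertain as single values, counts of Cyp3a25, Cyp3a59, Cyp3a44, Cyp3a11 and Cyp3a16 could hold some reads of their neighbours if reads were short, and counts of Cyp3a13 do not meet this limit.

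**Figure D1:**
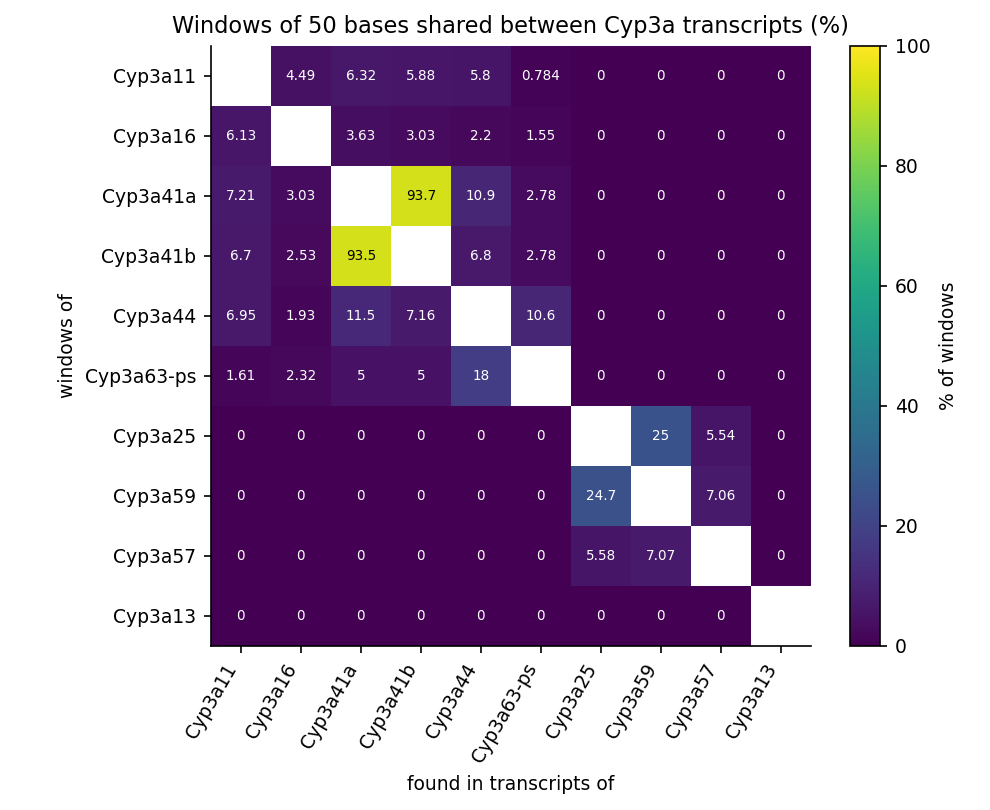
Share of 50-base windows of each Cyp3a transcript (rows) that also occur in another Cyp3a transcript (columns), in percent, colour from 0 to 100. Cyp3a41a and Cyp3a41b share over 93% of their windows, Cyp3a25 and Cyp3a59 share 25% and 24.7%, and Cyp3a13 shares none.

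The libraries held 75176645 to 91898953 counts under PE-MP chow and 68357478 to 112566641 under normal chow. Mitochondrially encoded rows took 9.71% to 10.1% of the counts under PE-MP chow and 14.9% to 16.4% under normal chow, and 18S rRNA took 0.334% to 5.98% under PE-MP chow and 1.15% to 11.2% under normal chow. The TMM factors that scale each library were 1.07 to 1.17 under PE-MP chow and 0.879 to 0.923 under normal chow. They did not overlap between the chows, so each level depends on the scaling. On the first principal component of the tested genes, normal chow library 2 stood at -1.26, between the PE-MP libraries (-26.3 to -23.7) and the other normal chow libraries (34.7 and 41). On the second component it stood apart at 44.6, against -26.8 to 1.49 for the other libraries. It also had the highest 18S share (11.2%) and the fewest counts (68357478). The tissue label was checked against markers. The 11 hepatocyte marker rows summed to 82449 to 92500 CPM under PE-MP chow and 75411 to 92685 under normal chow. Of 12 small intestine markers, 7 (Cdx1, Cdx2, Lct, Sis, Alpi, Rbp2 and Reg3b) had 0 counts in all 6 libraries. The 12 markers still summed to 161 to 233 CPM under PE-MP chow and 215 to 307 under normal chow. Most of this came from Apoa4 (means of 124 CPM under PE-MP chow and 157 under normal chow) and Fabp2 (63.4 and 74.5).

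The members spanned more than 3 orders of magnitude. To compare genes, levels are given per kb of transcript, as CPM, the count scaled to the library's total and its TMM factor. Cyp3a11 stood at 1546 ± 209 under PE-MP chow and 2114 ± 282 under normal chow (SD, n = 3 each). Cyp3a25 stood at 54.2 ± 7.12 under PE-MP chow and 82.9 ± 12.5 under normal chow, and Cyp3a13 at 50.6 ± 4.0 under PE-MP chow and 49.2 ± 5.38 under normal chow. Below them came Cyp3a59 at 24.1 ± 8.03 under PE-MP chow and 29.5 ± 6.77 under normal chow, and then Cyp3a44 at 8.03 ± 4.35 under PE-MP chow and 9.73 ± 3.76 under normal chow. The neonatal form Cyp3a16 stood at 2.07 ± 0.489 under PE-MP chow and 2.76 ± 0.389 under normal chow. Cyp3a41a was last at 0.539 ± 0.410 under PE-MP chow and 0.603 ± 0.436 under normal chow. In this order, the only neighbours whose libraries overlapped were Cyp3a25 and Cyp3a13 under PE-MP chow, where Cyp3a25 had 62.4, 50.5 and 49.8 CPM per kb in libraries 1, 2 and 3 and Cyp3a13 had 48.2, 55.2 and 48.4. Under normal chow every Cyp3a25 library (70.3, 95.4 and 83.0) stood above every Cyp3a13 library (52.7, 43.0 and 51.9).

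**Figure D2:**
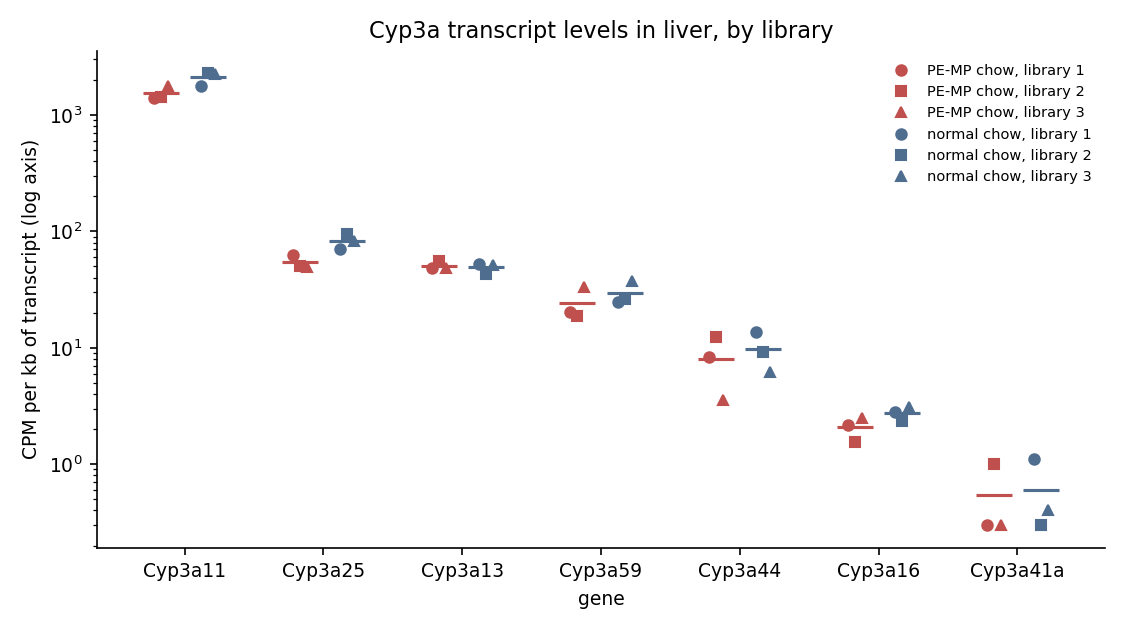
Levels of the 7 Cyp3a genes in CPM per kb of transcript (log axis), 1 point per library, with the group mean as a line. The order of the genes is the same in both chows, and Cyp3a25 and Cyp3a13 overlap under PE-MP chow, where they average 54.2 and 50.6.

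Cyp3a11 made up nearly the whole subfamily. It took 91.0%, 91.1% and 92.9% of the members' counts in PE-MP libraries 1, 2 and 3 and 91.7%, 93.1% and 92.8% in normal chow libraries 1, 2 and 3. The 95% Wilson intervals of these shares were at most 0.202 percentage points wide. They cover counting error only, since no molecular identifiers are mentioned. The 7 members together took 0.389%, 0.405% and 0.528% of all counts under PE-MP chow and 0.422%, 0.505% and 0.517% under normal chow. These shares overlapped between the chows. Only 31 tested genes had a higher mean CPM than Cyp3a11.

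With TMM factors, Cyp3a11 and Cyp3a25 were lower under PE-MP chow than under normal chow in every library, and neither difference passed the adjusted threshold. No member did, at an adjusted p under 0.05 from edgeR's quasi-likelihood F test with Benjamini-Hochberg adjustment over all tested genes (0 of 7, against a background of 0.00554% of tested genes, which is 1 gene, higher, while 0% were lower). With DESeq2 1 of 7 did, in a fit that called 1186 of 18043 tested genes. With limma-voom 0 of 7 did, in a fit that called 15. At an unadjusted edgeR p under 0.05, 2 of 7 members were lower and 0 of 7 higher, where 8.82% of all tested genes were lower and 9.1% higher (17.9% in all). The chows did not overlap, with PE-MP chow lower, in 2 of 7 members and in 11.8% of all tested genes. No member was higher without overlap, as 14.2% of all tested genes were (26% either way). With 7 members, 2 are few to read against these shares. The log2 fold changes of PE-MP chow over normal chow were negative for 6 members and positive for 1, with a median of -0.29. Over all tested genes the median was 0.018 and 51.7% were positive. Without scaling factors, 3 members were negative and 4 positive, with a median of 0.00034 against 0.32 over all tested genes.

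Cyp3a11, the main drug-metabolising member, had 3304.5, 3380.2 and 4188 CPM in PE-MP libraries 1, 2 and 3 and 4189.6, 5344.6 and 5327.7 CPM in normal chow libraries 1, 2 and 3. All PE-MP libraries were lower, but PE-MP library 3 and normal chow library 1 were almost level. The means were 3624 ± 490 CPM under PE-MP chow and 4954 ± 662 CPM under normal chow (SD, n = 3 each), a log2 fold change of -0.45 (SE 0.16, 95% interval -0.84 to -0.062). By edgeR's quasi-likelihood F test the unadjusted p was 0.0290 and the adjusted p 0.230. The interval covers folds of 0.559 to 0.958, so a fall below 0.559-fold lies outside it.

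Cyp3a25, another form of the adult liver, had 125, 101 and 99.5 CPM in PE-MP libraries 1, 2 and 3, against 141, 191 and 166 CPM in normal chow libraries 1, 2 and 3. The chows did not overlap, and PE-MP library 1 was the nearest to normal chow. The means were 108 ± 14.2 CPM under PE-MP chow and 166 ± 25.1 CPM under normal chow (SD, n = 3 each), which gave the smallest p among the members. Its log2 fold change was -0.61 (SE 0.16, 95% interval -0.99 to -0.23), a fold of 0.654. In edgeR the unadjusted p was 0.00680 and the adjusted p 0.154. DESeq2, the one alternative that called a member, gave -0.63 with an adjusted p of 0.0314, in a fit that called 1186 of all tested genes.

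Cyp3a59, the near copy of Cyp3a25, had 40.7, 37.1 and 66.4 CPM in PE-MP libraries 1, 2 and 3 and 49.2, 52.6 and 74.0 CPM in normal chow libraries 1, 2 and 3. The chows overlapped, and library 3 was the highest in each. Its log2 fold change was -0.29 (SE 0.27, 95% interval -0.93 to 0.35, edgeR adjusted p = 0.603). The count of Cyp3a59 relative to that of Cyp3a25 was 0.326, 0.367 and 0.667 under PE-MP chow and 0.350, 0.276 and 0.446 under normal chow, so the pair did not keep 1 ratio across libraries.

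Cyp3a13, a form of liver and small intestine with the most distinct transcript, had 143, 163 and 143 CPM in PE-MP libraries 1, 2 and 3 and 156, 127 and 153 CPM in normal chow libraries 1, 2 and 3. The chows overlapped, and the spread over all libraries was the smallest of the members, with the highest library 1.28 times the lowest. Its log2 fold change was 0.04 (SE 0.13, 95% interval -0.27 to 0.35, edgeR adjusted p = 0.894), which leaves out differences beyond 0.831-fold and 1.27-fold on this scaling.

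Cyp3a16, the neonatal form, had 3.75, 2.67 and 4.34 CPM in PE-MP libraries 1, 2 and 3 and 4.90, 4.06 and 5.39 CPM in normal chow libraries 1, 2 and 3. Only PE-MP library 3 reached into the normal chow range. The log2 fold change was -0.41 (SE 0.23, 95% interval -0.97 to 0.14, edgeR adjusted p = 0.397). Its counts were 219 to 467 per library under PE-MP chow and 244 to 546 under normal chow.

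The forms of the female liver were low and uneven. Cyp3a44 had 16.2, 24.1 and 7.02 CPM in PE-MP libraries 1, 2 and 3 and 26.9, 18.2 and 12.2 CPM in normal chow libraries 1, 2 and 3 (log2 fold change -0.28, SE 0.49, 95% interval -1.45 to 0.90, edgeR adjusted p = 0.793). Cyp3a41a had 0.624, 2.09 and 0.623 CPM in PE-MP libraries 1, 2 and 3 and 2.27, 0.615 and 0.839 CPM in normal chow libraries 1, 2 and 3 (log2 fold change -0.16, SE 0.68, 95% interval -1.81 to 1.48, edgeR adjusted p = 0.919). For both genes the chows overlapped widely, and the highest library was 3.83 times the lowest for Cyp3a44 and 3.69 times for Cyp3a41a. The 95% intervals of both reached beyond 1 log2 unit from 0. Those of the other 5 members lay within 1 log2 unit of 0, as did the intervals of 49.7% of all tested genes.

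The copy Cyp3a41b had 25, 41 and 35 counts in PE-MP libraries 1, 2 and 3 and 262, 24 and 58 counts in normal chow libraries 1, 2 and 3. Normal chow library 1 stood far above the other 5, and the edgeR fit gave a log2 fold change of -2.12 (SE 0.90, adjusted p = 0.290). Cyp3a41a counts relative to Cyp3a41b counts were 2.36, 4.17 and 1.91 under PE-MP chow and 0.607, 1.54 and 1.47 under normal chow. These ratios did not overlap (two-sided exact permutation p = 0.1, the smallest that 3 against 3 libraries can give), and they rest on how the counting divided reads of nearly identical copies. The sum of both copies was 0.888, 2.59 and 0.948 CPM under PE-MP chow and 6.01, 1.01 and 1.41 CPM under normal chow, and overlapped. Among the other rows, the pseudogene Cyp3a63-ps had 17, 20 and 22 counts under PE-MP chow and 15, 1 and 3 under normal chow. Cyp3a57 had 66 counts in PE-MP library 3, 21 in normal chow library 2 and 0 in the other 4. Cyp3a61-ps1 had 0 counts in all 6 libraries, against a limit of 0.0267 to 0.0439 CPM that 3 counts would make.

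The differences of Cyp3a11 and Cyp3a25 depended on the scaling. On CPM of total counts, with no scaling factor, Cyp3a11 had 3542, 3686 and 4904 CPM under PE-MP chow and 3868, 4701 and 4795 CPM under normal chow, and Cyp3a25 had 134, 110 and 117 CPM under PE-MP chow and 130, 168 and 149 CPM under normal chow. Both then overlapped between the chows. On that scale no member was lower without overlap (2.65% of all tested genes were), and 1 of 7, Cyp3a13, was higher without overlap (34.6% of all tested genes were), with 153, 178 and 167 CPM under PE-MP chow and 144, 112 and 138 CPM under normal chow.

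In the edgeR fit without factors the log2 fold change was -0.14 for Cyp3a11 (adjusted p = 0.640), -0.31 for Cyp3a25 (adjusted p = 0.222) and 0.34 for Cyp3a13 (adjusted p = 0.182). At an unadjusted p under 0.05, 1 of 7 members (Cyp3a13) was higher and 0 of 7 lower, where 25.2% of all tested genes were higher and 2.18% lower. The median of all tested genes was 0.32 in that fit. Relative to that median, Cyp3a11 stood at -0.46, Cyp3a25 at -0.63 and Cyp3a13 at 0.02, close to their values with TMM factors. Cyp3a41a, Cyp3a44 and Cyp3a59 had the opposite sign without factors, at 0.11, 0.00034 and 0.031. With mitochondrial and 18S rows also left out, Cyp3a25 had -0.45 (95% interval -0.87 to -0.038, which leaves out 0, edgeR adjusted p = 0.232) and Cyp3a11 -0.29 (95% interval -0.69 to 0.12, adjusted p = 0.386), with a median of all genes of 0.18. A lower level of Cyp3a11 or Cyp3a25 under PE-MP chow is thus relative to most other genes, and as a share of all counts both genes overlapped between the chows.

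**Figure D3:**
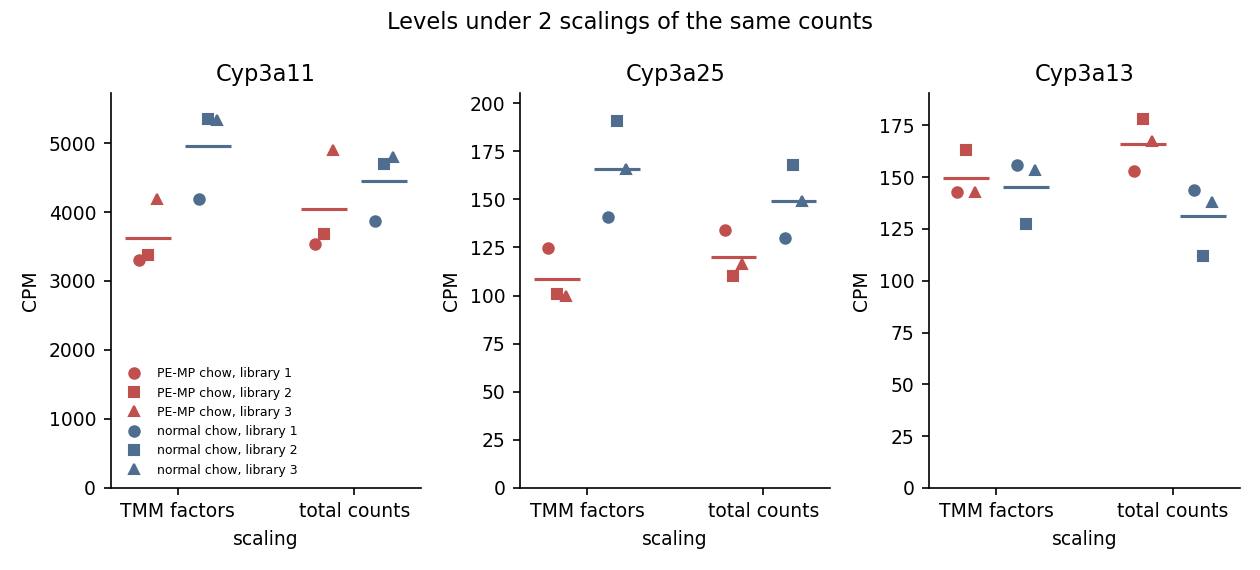
CPM of Cyp3a11, Cyp3a25 and Cyp3a13 per library with TMM factors and as CPM of total counts, with group means as lines. For Cyp3a11 and Cyp3a25 the chows are apart with TMM factors and overlap on total counts, and for Cyp3a13 the chows overlap with TMM factors and are apart on total counts.

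**Figure D4:**
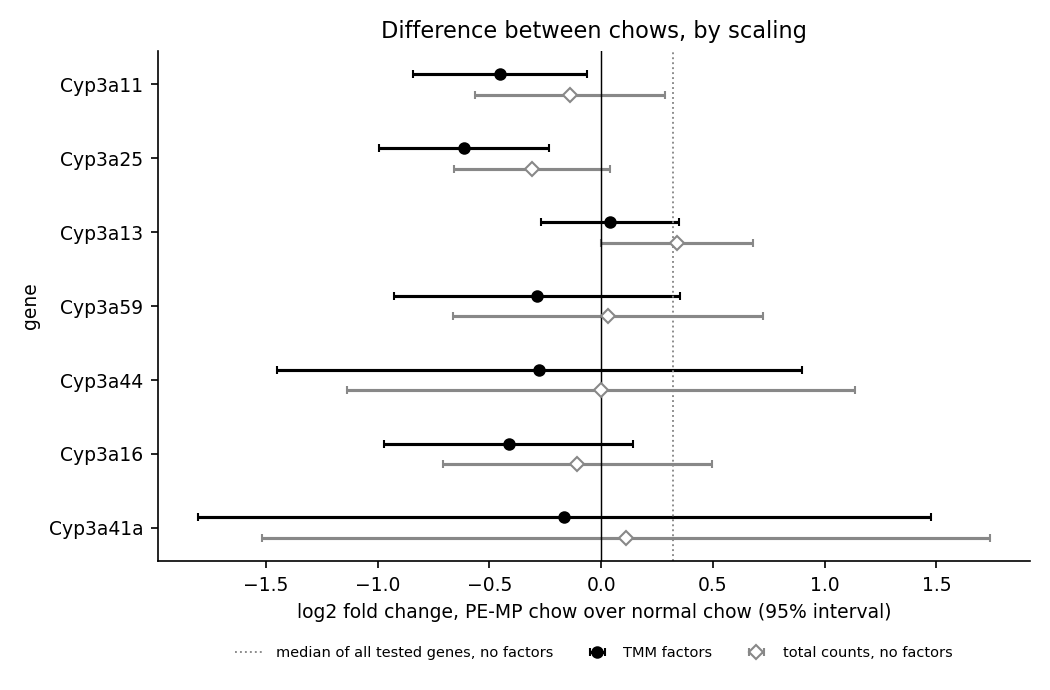
Log2 fold change of PE-MP chow over normal chow with its 95% interval for each member, with TMM factors (filled) and without factors (open). With TMM factors the intervals of Cyp3a11 (-0.84 to -0.062) and Cyp3a25 (-0.99 to -0.23) leave out 0, and without factors on the full table both include it. The dotted line is the median of all tested genes without factors, 0.32.

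Ratios of counts between members do not depend on the scaling of a library, and 21 pairs were compared. The count of Cyp3a13 relative to Cyp3a25 was 1.14, 1.62 and 1.44 in PE-MP libraries 1, 2 and 3 and 1.11, 0.667 and 0.924 in normal chow libraries 1, 2 and 3. It was higher in all PE-MP libraries, by little between PE-MP library 1 and normal chow library 1. Cyp3a13 relative to Cyp3a16 was 38.0, 61.1 and 32.9 under PE-MP chow and 31.8, 31.3 and 28.5 under normal chow, again without overlap. These 2 of 21 pairs were the only ones without overlap, each with a two-sided exact permutation p of 0.1, the smallest the design allows, and 0.9 after Benjamini-Hochberg adjustment over the 21 pairs. Cyp3a11 relative to Cyp3a13 was 23.2, 20.7 and 29.3 under PE-MP chow and 26.9, 42.0 and 34.7 under normal chow, and Cyp3a11 relative to Cyp3a25 was 26.5, 33.5 and 42.1 under PE-MP chow and 29.8, 28.0 and 32.1 under normal chow. Both overlapped. With 3 libraries per chow no ratio could reach a p under 0.05.

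**Figure D5:**
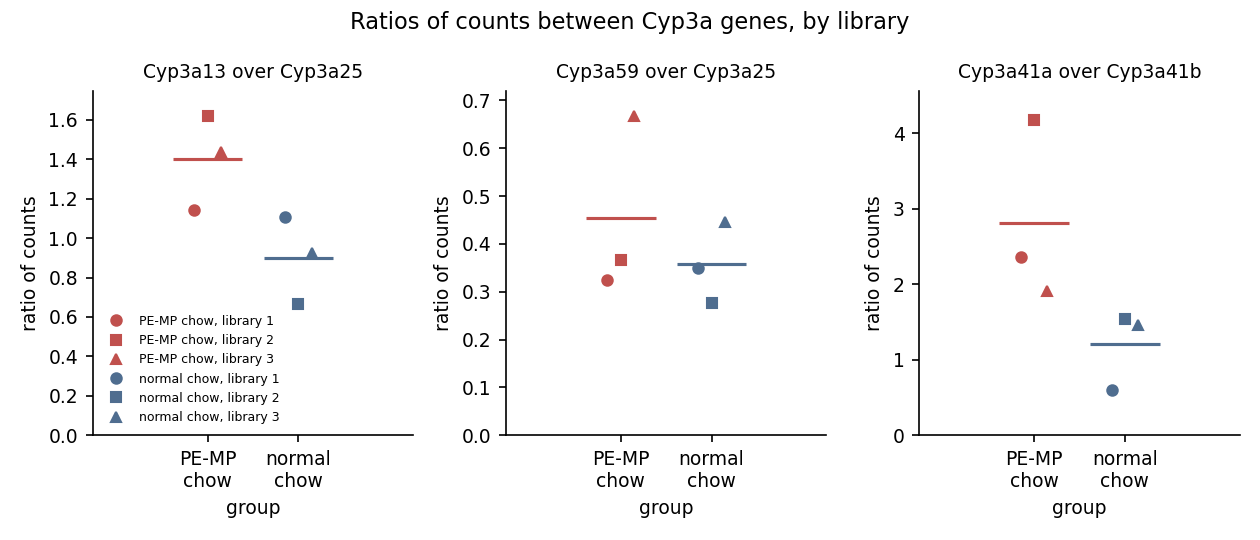
Ratio of counts per library for Cyp3a13 over Cyp3a25, Cyp3a59 over Cyp3a25 and Cyp3a41a over Cyp3a41b, with group means as lines. Cyp3a13 over Cyp3a25 and Cyp3a41a over Cyp3a41b do not overlap between the chows (PE-MP chow 1.14 to 1.62, normal chow 0.667 to 1.11 for Cyp3a13 over Cyp3a25), and for Cyp3a59 over Cyp3a25 library 3 is the highest in each chow.

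Across the 6 libraries the members did not vary as 1 unit. As a description, with all points sharing the same libraries and factors, Pearson's r of log2 CPM was 0.78 between Cyp3a11 and Cyp3a25, 0.78 between Cyp3a11 and Cyp3a59 and 0.69 between Cyp3a11 and Cyp3a16. It was -0.44 between Cyp3a11 and Cyp3a13, and 0.33 within the near-identical pair Cyp3a25 and Cyp3a59. Cyp3a41a went with Cyp3a13 at 0.79 and with Cyp3a44 at 0.72. Of 6762 tested genes outside the subfamily with a mean of at least 10 CPM, the patterns most like that of Cyp3a11 were those of Nln, Ypel3 and Ifi47, each with r of 0.98 to 0.99 over the 6 libraries. These are the highest of 6762 values ranked on 6 points, so a high r comes in part from the picking. Shared regulation was not tested. Nln, an oligopeptidase gene, averaged 25.3 ± 3.83 CPM under PE-MP chow and 35.5 ± 5.09 CPM under normal chow (SD, n = 3 each).

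Among 20 genes of receptors and cofactors that act on Cyp3a transcription, all tested, none passed the adjusted threshold, and at an unadjusted p under 0.05 there was 1 higher and 1 lower. Their median log2 fold change was -0.028. At the same unadjusted level 9.1% of all tested genes were higher and 8.82% lower. Without factors 3 of the 20 were higher and 0 lower, with a median of 0.27, where 25.2% of all tested genes were higher and the median was 0.32. For the genes of these groups, a value with an SE is the log2 fold change of PE-MP chow over normal chow. Nr1i2, which encodes PXR, had 65.5, 55.0 and 67.8 CPM in PE-MP libraries 1, 2 and 3 and 90.0, 61.3 and 65.5 CPM in normal chow libraries 1, 2 and 3 (log2 fold change -0.20, SE 0.18, edgeR adjusted p = 0.577). Nr1i3, which encodes CAR, had 77.8, 87.0 and 194 CPM under PE-MP chow and 238, 20.7 and 7.63 CPM under normal chow, and its 3 normal chow libraries differed more from each other than the chows did (log2 fold change 0.43, SE 1.21, adjusted p = 0.880). Normal chow libraries 2 and 3 had the lowest Nr1i3 and the highest Cyp3a11, while PE-MP library 3 had the highest of both within its chow. A relation between these genes was not tested. Hnf4a averaged 339.7 ± 30.7 CPM under PE-MP chow and 337.9 ± 45.3 CPM under normal chow (SD, n = 3 each). The RXR partner Rxra averaged 257 ± 12.0 CPM under PE-MP chow and 358 ± 101 CPM under normal chow (log2 fold change -0.48, SE 0.22, edgeR adjusted p = 0.311). The smallest p-values of the list were those of the coactivator Ncoa3 (0.48, SE 0.13, adjusted p = 0.17) and of Rxrb (-0.38, SE 0.13, adjusted p = 0.219).

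Among 14 tested genes of electron donors and haem supply, none passed the adjusted threshold, and 3 were lower and 1 higher at an unadjusted p under 0.05, with a median log2 fold change of -0.16. Without factors 1 was lower and 3 higher, with a median of 0.15. With TMM factors 8.82% of all tested genes were lower and 9.1% higher. Without factors 2.18% of all tested genes were lower and 25.2% higher, with a median of 0.32. Por, the reductase that feeds all microsomal P450 enzymes, had 233, 296 and 361 CPM in PE-MP libraries 1, 2 and 3 and 97.3, 192 and 421 CPM in normal chow libraries 1, 2 and 3 and overlapped. Cyb5a, cytochrome b5 of the endoplasmic reticulum, averaged 889.6 ± 73.0 CPM under PE-MP chow and 1174 ± 140 CPM under normal chow, without overlap (log2 fold change -0.40, SE 0.14, edgeR adjusted p = 0.216). The b5 reductase Cyb5r3 averaged 316 ± 16.1 CPM under PE-MP chow and 599.8 ± 159 CPM under normal chow, without overlap (-0.93, SE 0.21, adjusted p = 0.135), and the outer mitochondrial b5 Cyb5b had -0.34 (SE 0.14, adjusted p = 0.274). Alas1, the rate-limiting enzyme of haem synthesis in liver, overlapped at 456 ± 67.6 CPM under PE-MP chow and 321 ± 170 CPM under normal chow.

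Other genes known as PXR or CAR targets were counted in the same way. Of 31 listed, 30 were tested, and 13 were lower and 0 higher at an unadjusted p under 0.05, against 8.82% and 9.1% of all tested genes. Their median log2 fold change was -0.53, and 14 were lower without overlap and 1 higher (11.8% and 14.2% of all tested genes). None passed the adjusted threshold. Without scaling factors 8 were lower and 3 higher, both at an unadjusted p under 0.05 and without overlap, with a median of -0.23 against 0.32 over all genes. Of all tested genes 2.18% were then lower and 25.2% higher by p, and 2.65% lower and 34.6% higher without overlap. The listed genes with the smallest p were glutathione transferases, which conjugate reactive compounds. Gstm3 averaged 12.5 ± 0.866 CPM under PE-MP chow and 61.6 ± 22.1 CPM under normal chow (log2 fold change -2.30, SE 0.29, edgeR adjusted p = 0.0724). Gsta1 averaged 5.63 ± 0.864 CPM under PE-MP chow and 19.8 ± 5.07 CPM under normal chow (-1.81, SE 0.23, adjusted p = 0.0724), and Gstm1 1047 ± 116 CPM under PE-MP chow and 2445 ± 563 CPM under normal chow (-1.22, SE 0.20, adjusted p = 0.124). Gsta4, Gstm2 and Gstt1, of the same family, were among the 13 as well. So were the P450 genes Cyp2b10 (-2.34, SE 0.51, adjusted p = 0.135) and Cyp2c55 (-1.77, SE 0.31, adjusted p = 0.124). Of the 30 tested genes, 24 had a negative log2 fold change and 6 a positive one, where 51.7% of all tested genes had a positive one. Among these 6 were Abcc2 (0.36), Cyp2c37 (0.32) and Ugt1a1 (0.30). Glutathione transferases are known targets of other regulators as well, and the list was drawn up with earlier results of these data known.

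Since Cyp3a41a and Cyp3a44 are known as female forms, other genes with a known sex bias in mouse liver were set beside them. These lists too were drawn up with earlier results of these data known, so their counts are a description. Of 16 tested female-biased genes, 4 were higher and 0 lower at an unadjusted p under 0.05, against 9.1% and 8.82% of all tested genes. The median log2 fold change of the 16 was 0.32, while Cyp3a44 had -0.28 and Cyp3a41a -0.16. Without factors the count was again 4 higher and 0 lower, against 25.2% and 2.18% of all tested genes. The median of the 16 was then 0.63, against 0.32 over all tested genes. Cux2, a repressor of male-biased genes in female liver, averaged 2.25 ± 2.09 CPM under PE-MP chow and 0.241 ± 0.0572 CPM under normal chow (3.22, SE 0.74, edgeR adjusted p = 0.139), while Prom1 had 1.04 (SE 0.39, adjusted p = 0.238) and Cyp39a1 0.52 (SE 0.20, adjusted p = 0.242). Of 20 tested male-biased genes, 5 were lower and 1 higher, with a median of -0.40. The higher 1 was Bcl6, at 24.9 ± 18.7 CPM under PE-MP chow and 2.35 ± 2.14 CPM under normal chow (3.41, SE 1.09, adjusted p = 0.206). Without factors 3 were lower and 2 higher, with a median of -0.091. The shares of all tested genes given for the female-biased list hold here too. The smallest p-values were those of Cyp4a12b, a fatty acid hydroxylase that is itself hard to tell from Cyp4a12a (59.4 ± 5.02 CPM under PE-MP chow and 176 ± 20.7 CPM under normal chow, -1.56, SE 0.14, adjusted p = 0.0599), Selenbp2 (-0.97, SE 0.13, adjusted p = 0.0741) and Cyp4a12a (-1.51, SE 0.26, adjusted p = 0.124). No gene of either list passed the adjusted threshold.

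Cyp3a11 is expressed more strongly around the central vein than around the portal tract, so zonal markers were counted too. Their lists were likewise drawn up with earlier results of these data known. Of 19 tested pericentral genes, 4 were lower and 0 higher at an unadjusted p under 0.05, with a median log2 fold change of -0.24. Without factors the count turned to 0 lower and 2 higher, with a median of 0.058. Among them Lect2 had -0.42 (SE 0.14, edgeR adjusted p = 0.218) and Rhbg -1.11 (SE 0.39, adjusted p = 0.218). Of 16 periportal genes, none was lower or higher at that level, with a median of 0.0033. Without factors 5 were higher and 0 lower, with a median of 0.31. Beside both zonal lists, 8.82% of all tested genes were lower and 9.1% higher with TMM factors. Without factors 2.18% of all tested genes were lower and 25.2% higher, with a median of 0.32. Among the periportal genes the smallest p-values were those of Cyp2f2, Hsd17b13 and Pigr. Cyp2f2 had -0.38 (SE 0.18, adjusted p = 0.324), Hsd17b13 0.21 (SE 0.11, adjusted p = 0.334) and Pigr 0.19 (SE 0.13, adjusted p = 0.468).

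Bulk liver RNA cannot tell fewer cells of a type from less RNA per cell. Of 11 tested hepatocyte markers 1 was higher and 0 lower at an unadjusted p under 0.05, with a median log2 fold change of 0.016 (2 higher, 0 lower and a median of 0.32 without factors), and the summed levels given above overlapped. Among them Tat had 0.53 (SE 0.21, edgeR adjusted p = 0.254), Ttr -0.42 (SE 0.18, adjusted p = 0.281) and Cps1 0.24 (SE 0.20, adjusted p = 0.557). Markers of some other cell types differed between the chows at the unadjusted level. The marker lists, here and below, were drawn up with earlier results of these data known, so their counts are a description. Of 12 Kupffer cell and macrophage markers 6 were higher and 0 lower, against 9.1% and 8.82% of all tested genes, with a median of 0.63. Without factors 11 were higher and 0 lower, against 25.2% and 2.18% of all tested genes, with a median of 0.92. With TMM factors the markers had summed levels of 357, 295 and 213.2 CPM under PE-MP chow and 193, 178 and 213.6 CPM under normal chow. Clec1b had 1.01 (SE 0.18, adjusted p = 0.124), Cd68 0.65 (SE 0.15, adjusted p = 0.14) and Vsig4 0.75 (SE 0.20, adjusted p = 0.159). Of 10 lymphocyte markers 4 were lower and 1 higher (2 lower and 1 higher without factors), with summed levels of 12.1, 8.86 and 7.40 CPM under PE-MP chow and 40.1, 56.4 and 21.2 CPM under normal chow. Their smallest p-values were those of Cd79a (-1.37, SE 0.31, adjusted p = 0.137), Jchain (-3.38, SE 0.82, adjusted p = 0.150) and Cd8a (-1.24, SE 0.45, adjusted p = 0.231).

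Of 6 tested adipocyte markers 4 were lower and 0 higher at an unadjusted p under 0.05, with a median log2 fold change of -2.24, also with Retn held at its bound. Without factors 3 were lower and 0 higher. Beside these and the counts that follow, 8.82% of all tested genes were lower and 9.1% higher with TMM factors. Without factors 2.18% of all tested genes were lower and 25.2% higher, with a median of 0.32. The defining fat cell genes Lep, Plin1 and Adipoq had 0 to 10 counts per library. Retn had 0 counts in all PE-MP libraries and 11 to 35 in normal chow libraries, Cfd had -2.99 (SE 0.87, edgeR adjusted p = 0.184) and Cidec, which hepatocytes can also express, -1.89 (SE 0.60, adjusted p = 0.201). Endothelial markers had 1 of 12 higher and 0 lower, with a median of 0.31. Without factors 8 of 12 were higher and 0 lower, with a median of 0.60. Stab1 had 0.83 (SE 0.19, adjusted p = 0.135), Kdr 0.43 (SE 0.20, adjusted p = 0.314) and Clec4g 0.31 (SE 0.18, adjusted p = 0.394). Stellate cell and fibroblast markers had 2 of 10 lower and 0 higher, with a median of -0.34. Without factors 0 of 10 were lower or higher, with a median of -0.028. Pdgfrb had -1.37 (SE 0.50, adjusted p = 0.237), Col3a1 -0.75 (SE 0.29, adjusted p = 0.246) and Col1a1 -0.95 (SE 0.47, adjusted p = 0.341). None of the 8 tested cholangiocyte markers passed at that level, with a median of 0.31 (2 higher, 0 lower and a median of 0.62 without factors), and Muc1 had 0.82 (SE 0.45, adjusted p = 0.380), Sox9 -0.63 (SE 0.38, adjusted p = 0.423) and Spp1 0.51 (SE 0.31, adjusted p = 0.429). The 4 tested small intestine markers had a median of -0.29 (0.022 without factors) and none passed either with or without factors, with Anpep at -0.70 (SE 0.32, adjusted p = 0.309), Slc5a1 at 0.48 (SE 0.39, adjusted p = 0.546) and Apoa4 at -0.34 (SE 0.29, adjusted p = 0.566). The part of these markers, of the mitochondrial share and of the library make-up in the Cyp3a values was not tested.

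Without normal chow library 2, which stood apart from the other normal chow libraries, Cyp3a11 had a log2 fold change of -0.40 (edgeR adjusted p = 0.185) and Cyp3a25 one of -0.50 (adjusted p = 0.0942). In that fit 1075 genes passed the adjusted threshold and none of the 7 members did.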

How the data were processed

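The deposited files hold raw counts per gene, whole numbers that the authors did not normalise, as the file headers and totals show, and the per-library files equal the series table. Per the submitters' processing notes, reads were converted with bcl2fastq and the build was GRCm39. Aligner, counter, annotation and strand handling were not given in the sources used here. Per the labels' protocols the kit keeps strand.

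All 56674 rows entered edgeR 4.0.16 (R 4.3.3) with its default filter on low counts, TMM factors and the robust quasi-likelihood F test of PE-MP chow over normal chow. Two-sided p-values received Benjamini-Hochberg adjustment over 18043 genes, with a threshold of 0.05. They set the difference between the chows against the spread between libraries of the same chow, which may be technical. CPM used total counts times the factors. Count ratios were compared by exact permutation of log2 ratios. DESeq2 1.42.0, limma-voom (limma 3.58.1), upper-quartile and RLE factors, other filters, length and GC offsets, left-out libraries and rows, and a replicate block were tried. The edgeR steps were tested on simulated data.

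Transcript lengths and windows came from GENCODE M21 (GRCm38), which holds 89.5% of the row symbols. The length of a gene is that of its longest coding transcript, and sequences were aligned with Biopython 1.88. Members and lists were chosen with earlier results of these data known. Named list genes are the 3 tested members with the smallest p, with Nr1i2, Nr1i3, Hnf4a, Rxra, Por, Cyb5a and Alas1. Some other list genes, such as Bcl6 and Fabp2, are named outside this rule. A gene that this rule selects among the pericentral genes is not reported here. Likeness to Cyp3a11 used r of log2(CPM + 0.01) and took the 3 highest.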

Additional observations from a re-analysis of the deposited data

How the results depend on the processing

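The count of Cyp3a members past the adjusted threshold was 0 under every alternative in edgeR and limma-voom, and 1 with DESeq2 (Cyp3a25). The count of all tested genes past it was 1, and 3 with RLE factors, 23 with no filter, 22 with the stricter filter, 2 without robust dispersions, 4 with the length and GC offset, 53 at an adjusted p of 0.1, 1186 with DESeq2 and 15 with limma-voom. Leaving out 1 library gave 1 to 1075. The alternatives without scaling factors, one of them also without mitochondrial and 18S rows, were added after seeing the data, and the first called 10 genes. The causes of these differences in count were not tested.

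Cyp3a11, Cyp3a16 and Cyp3a25 kept a negative log2 fold change under all 18 alternatives, over -0.76 to -0.14 for Cyp3a11, -0.68 to -0.11 for Cyp3a16 and -0.91 to -0.31 for Cyp3a25, the first of each with the length and GC offset. The sign turned for Cyp3a13 with that offset (-0.29) and without PE-MP chow library 2 (-0.029) or normal chow library 2 (-0.052). With 1 library left out, the log2 fold change ran over -0.58 to -0.38 for Cyp3a11, -0.72 to -0.50 for Cyp3a25, -0.052 to 0.089 for Cyp3a13, -0.58 to -0.24 for Cyp3a16 (without PE-MP chow libraries 3 and 2), -0.99 to 0.60 for Cyp3a41a and -0.73 to 0.071 for Cyp3a44. For Cyp3a59 it ran over -0.60 (without PE-MP chow library 3, edgeR unadjusted p = 0.0314, adjusted p = 0.354) to -0.085 (without normal chow library 3). It turned for Cyp3a41a without PE-MP chow library 1 (0.13) or 3 (0.13), without normal chow library 1 (0.60), without factors (0.11) and without factors and mitochondrial and 18S rows (0.00012). Cyp3a44 turned without PE-MP chow library 3 (0.071) or normal chow library 1 (0.049) and without factors (0.00034), and Cyp3a59 without factors (0.031). Cyp3a41a was not tested under the stricter filter.

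Replicate numbers were not treated as pairs, since the labels name no shared animal, cage or batch. Same-numbered libraries correlated at 0.062, 0.095 and 0.197. PE-MP libraries 2 and 3 were each nearest to the normal chow library of their own number, and PE-MP library 1 was nearer to normal chow library 2 (0.10). With the replicate block 0 genes passed, Cyp3a11 had -0.45 and Cyp3a25 -0.61, and no member's call changed. The block lowered the SE of Cyp3a59 from 0.27 to 0.13, of Cyp3a44 from 0.49 to 0.29 and of Cyp3a16 from 0.23 to 0.19. It raised the SE of the other members. Cyp3a11, Cyp3a13 and Cyp3a25 had at least 7645 counts in every library, and Cyp3a41a had 37 to 171. What makes Cyp3a41a and Cyp3a44 uneven between libraries was not tested.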
